A study of Mus musculus with 8 samples.

Results

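Killer cell lectin-like receptors are a family of C-type lectin receptors encoded by the Klr genes. They were taken here as all genes whose symbol starts with Klra, Klrb, Klrc, Klrd, Klre, Klrg, Klri or Klrk, which gave 26 of the 31053 mouse genes counted. The counts come from droplet single-cell RNA sequencing of CD45+ cells, the leukocytes and microglia, which were separated magnetically. One group came from tumours of glioma-bearing mice and the other from the brains of normal mice, here called glioma and control. The labels list 4 samples in each group, but the counts form 1 matrix per group with no assignment of barcodes to mice. Each group was therefore 1 pooled library, and no difference between groups, or between cell classes of 1 library, could be tested against replicates. The labels give no strain, age, sex, tumour model or treatment for either group.

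Most of these receptors sit on natural killer (NK) cells and on subsets of T cells, where they recognise MHC class I proteins, relatives of MHC class I induced by stress, or other lectins. Inhibitory members carry cytoplasmic motifs that recruit phosphatases, and activating members pair with adaptor proteins such as those encoded by Tyrobp, Hcst and Fcer1g. Klrd1 encodes CD94, which joins NKG2A (Klrc1, inhibitory) or NKG2C (Klrc2, activating) to read the non-classical MHC protein Qa-1. Klrk1 encodes NKG2D, the Klrb1 genes encode NKR-P1 receptors, and the Klra genes encode the Ly49 receptors, which in rodents do the work that the unrelated KIR receptors do in humans.

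All 26 genes lie on mouse chromosome 6 in the GRCm38 annotation. Of these, 24 lie between Klrb1a and Klra2 in a stretch of 2638 kb, chr6:128609227-131247362, known as the natural killer gene complex. Klrg1 (chr6:122270596-122282882) and Klrg2 (chr6:38625693-38637242) lie outside it. Inside the complex, Klrd1 lies on the plus strand at chr6:129591782-129598775 beside Klrk1 on the minus strand at chr6:129610323-129623864. Klrc1 follows on the minus strand at chr6:129666015-129678973. The Klra genes end the complex, with Klra4 at chr6:130043731-130067271 and Klra2, apart from its relatives, at chr6:131219223-131247362.

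Promoter sequences from RefSeq (GRCm38.p6) were at hand for 23 of the 26 members, in 28 entries. The 200 bases before the start of transcription are shown for 5 of them, because these genes separate the cell classes below: Klra4 and Klra8 were highest in NK cells, Klra2 was highest in macrophages, and Klrc1 and Klrc2 were spread over NK cells and T cells. All 5 lie on the minus strand and are written 5′ to 3′. Capitals mark GAGGAA (the core bound by ETS factors of the PU.1 type), TGTGGT (the core bound by Runx factors) and TATAAA (the letters of the TATA box), searched on both strands.
Klra4, chr6:130067272-130067471: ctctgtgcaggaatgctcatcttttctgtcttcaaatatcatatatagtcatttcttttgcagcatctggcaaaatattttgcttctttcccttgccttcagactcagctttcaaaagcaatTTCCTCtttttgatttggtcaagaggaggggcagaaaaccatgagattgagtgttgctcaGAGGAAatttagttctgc
Klra8, chr6:130129899-130130098: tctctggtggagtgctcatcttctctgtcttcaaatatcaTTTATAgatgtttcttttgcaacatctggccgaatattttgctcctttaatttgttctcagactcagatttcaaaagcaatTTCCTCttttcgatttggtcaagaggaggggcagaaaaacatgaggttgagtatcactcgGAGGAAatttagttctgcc
Klra2, chr6:131247363-131247562: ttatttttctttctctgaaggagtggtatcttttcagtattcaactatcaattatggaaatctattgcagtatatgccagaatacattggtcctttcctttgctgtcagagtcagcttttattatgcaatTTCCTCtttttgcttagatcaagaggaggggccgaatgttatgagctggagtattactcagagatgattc
Klrc1, chr6:129678974-129679173: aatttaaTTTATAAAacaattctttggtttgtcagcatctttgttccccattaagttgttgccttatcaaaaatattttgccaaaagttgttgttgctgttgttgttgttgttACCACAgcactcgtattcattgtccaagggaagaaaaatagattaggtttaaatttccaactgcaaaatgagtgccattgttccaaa
Klrc2, chr6:129660597-129660796: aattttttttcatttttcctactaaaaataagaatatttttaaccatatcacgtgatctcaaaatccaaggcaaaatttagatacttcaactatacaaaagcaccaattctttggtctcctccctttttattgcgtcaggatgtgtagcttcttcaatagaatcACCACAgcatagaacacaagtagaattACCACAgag
GAGGAA stood in 15 of the 28 member entries, against 19.0% of 32851 mouse promoters of the same length. Klrb1b, Klre1, Klrc2 and Klra8 have 2 overlapping entries each, and related genes share stretches, so the 28 entries are not independent. The bases after the start in the entries of Klrb1 and Klra3 were not found in a transcript of the gene. TGTGGT stood in 7 of 28 entries, of Klrb1a, Klrb1c, Klrc1, Klrc2, Klrc3 and Klrk1, against 11.2% of all promoters. TATAAA was found in 7 of 28, against 9.96% of all, and the T-box core TCACAC in 2 of 28, against 9.85%. Matches overlapped each other only in Klrc1, where TATAAA was read on both strands. Klra8 and Klra2 shared a run of 15 bases around 1 GAGGAA match, gcaatttcctctttt (which holds GAGGAA on the other strand), and this run stood in 9 of the 32851 promoters, 8 of them entries of members. Those entries were of Klra17, Klra6, Klra4, Klra8, Klra9, Klra3 and Klra2, and the run was in no entry of Klra7, Klra1, Klra5 or Klra10. It was thus found in some, not all, of the Klra genes highest in NK cells, and in Klra2.

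The glioma library held 159689787 unique molecular identifiers (UMIs, each a counted RNA molecule) and the control library 124023146. Barcodes with at least 1000 UMIs, of which at most 10% were mitochondrial, gave 11049 glioma cells (median 11332 UMIs) and 13680 control cells (median 6842). A total of 50 barcodes passed 1000 UMIs in both libraries. Cells were placed in classes by raw UMIs of marker genes, none of them a member. The glioma library gave 43 NK, 361 CD8, 471 CD4 and 93 gamma delta T cells, 270 dendritic cells and 5856 macrophages. The control library gave 9, 5, 4, 1, 1 and 178 of the same classes and 11569 microglia. Levels are given in CPM, the UMIs of a gene in the summed cells of a class scaled to a total of 1000000 UMIs. The 8 NK markers, among them Eomes, Gzma and Prf1, summed to 9739 CPM in the glioma NK class and to 9.02 in dendritic cells and 9.68 in macrophages. The 7 T cell markers summed to 849 CPM in the NK class, against 2152 in CD8 and 1012 in gamma delta T cells, with Cd5, Cd6 and Themis at 0 in the NK class and the other 4 above 0. Macrophage markers summed to 343 to 511 CPM in the 4 lymphocyte classes, against 15605 in macrophages.

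A member was called measured where at least 1 of the 6 classes of the glioma library held 20 UMIs of it, which 21 of 26 did. Klra5 (at most 19 UMIs in a class), Klrb1a (16), Klrc3 (3), Klrb1 (1) and Klra10 (0) stayed below. Intervals are exact 95% intervals and cover counting error only, not differences between mice.

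The 26 members together made up 3080 CPM in glioma NK cells, 983 in CD8 T cells, 915 in gamma delta T cells, 507 in CD4 T cells, 461 in dendritic cells and 269 in macrophages. Of the 21 measured members, 14 were highest in NK cells. CD8 T cells held the highest level of Klrc1, CD4 T cells of Klrg1, gamma delta T cells of Klra6 and dendritic cells of Klri1. Macrophages held the highest levels of Klrg2, Klra17 and Klra2. These orders hold among the 6 classes only. For Klrc1, Klrg1, Klra6, Klri1, Klrg2, Klrc2 and Klra1 the highest and the next class did not differ beyond counting error. Klra2 went with the myeloid cells although its nearest relatives on the chromosome, Klra1 and Klra3, were highest in NK cells.

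**Figure D1:**
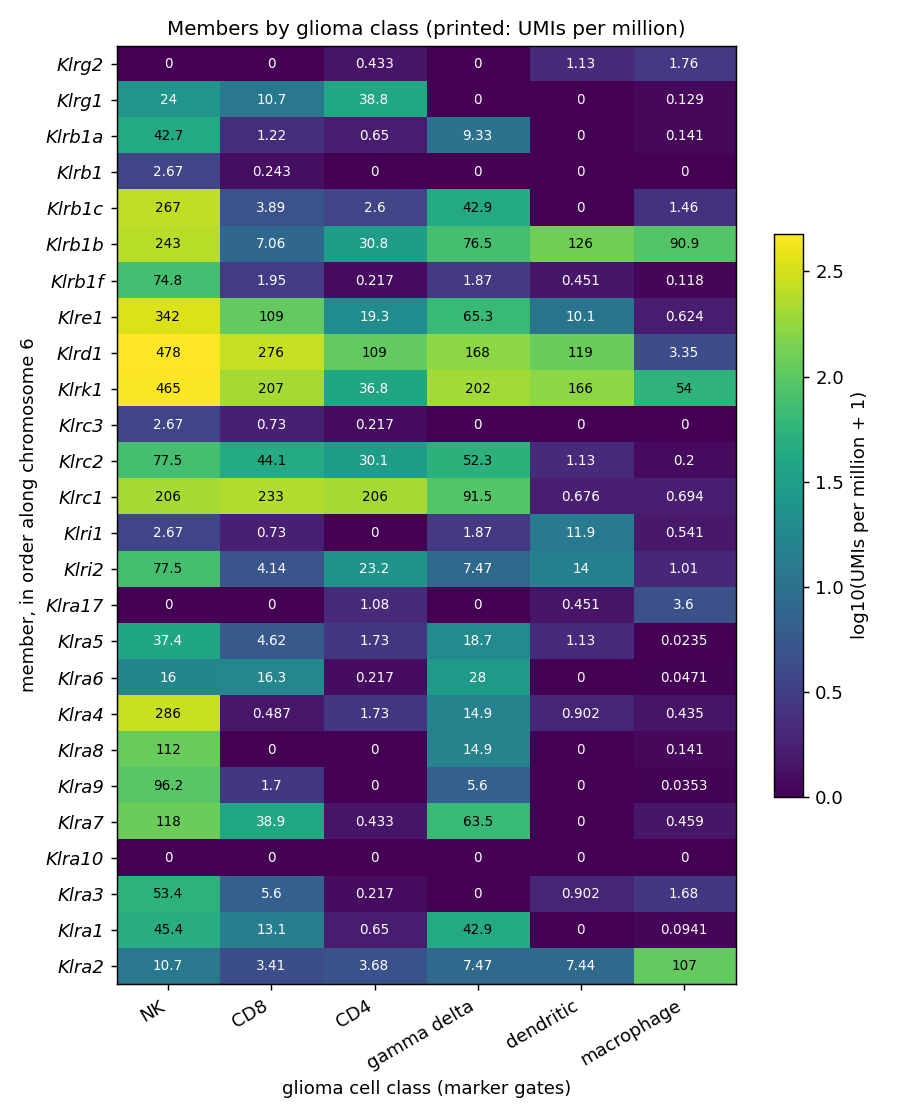
Level of each of the 26 members (rows, in order along chromosome 6) in 6 glioma cell classes (columns), as colour on a log10 scale and as printed CPM. NK cells lead for most rows, while Klrb1b and Klrk1 reach into dendritic cells and macrophages and Klra2 stands out in macrophages at 107.

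CD94 and its partners were the members spread most widely over lymphocytes. Klrd1 reached 478 CPM in NK cells (411 to 554), 276 in CD8 T cells (260 to 292), 168 in gamma delta T cells (135 to 206), 119 in dendritic cells (109 to 129), 109 in CD4 T cells (99.2 to 118) and 3.35 in macrophages (2.98 to 3.77). NK and CD8 stood apart beyond counting error, whereas dendritic and CD4 cells overlapped. Without the deepest 10% of cells, the log2 ratio of Klrd1 in gamma delta over CD4 T cells was -0.06, against 0.64 with all cells. Klrc1, the inhibitory partner, reached 206 in NK cells (162 to 257), 233 in CD8 T cells (218 to 248), 206 in CD4 T cells (193 to 219) and 91.5 in gamma delta T cells (67.7 to 121). In dendritic cells Klrc1 was at 0.676 and in macrophages at 0.694, so the dendritic Klrd1 was not accompanied by Klrc1. Klrc2, the activating partner, was lower in each lymphocyte class, at 77.5 in NK cells (51.9 to 111), 44.1 in CD8 T cells (37.9 to 51.0), 30.1 in CD4 T cells (25.3 to 35.6) and 52.3 in gamma delta T cells (34.7 to 75.5). The interval of gamma delta T cells overlapped those of NK and of CD8 cells. Within the last 500 bases of their transcripts, 21.9% of 90-base windows of Klrc1 and 8.49% of those of Klrc2 also occur in another Klrc gene, and reads there cannot be assigned to either with certainty. The partner ligand gene H2-T23, which encodes Qa-1, was similar over all 6 classes, from 200 in CD8 T cells to 294 in CD4 T cells.

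Klre1 encodes a receptor chain that pairs with KLRI1 (inhibitory) or KLRI2 (activating). Its level was 342 CPM in NK cells (285 to 407), 109 in CD8 T cells (98.9 to 119), 65.3 in gamma delta T cells (45.5 to 90.9), 19.3 in CD4 T cells (15.5 to 23.7), 10.1 in dendritic cells (7.40 to 13.6) and 0.624 in macrophages. The partners did not follow that order. Klri2 was at 77.5 in NK cells (51.9 to 111), 23.2 in CD4 T cells (19.0 to 28.0), 14.0 in dendritic cells (10.7 to 17.9) and 4.14 in CD8 T cells (2.41 to 6.62). Klri1 was highest in dendritic cells, at 11.9 (8.95 to 15.6), and had 1 to 3 UMIs in each of NK, CD8 and gamma delta cells and none in CD4 T cells.

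Klrk1 encodes NKG2D, which binds stress-induced proteins and signals through the adaptors encoded by Hcst and, for its short form, Tyrobp. Its level was 465 CPM in NK cells (398 to 539), 207 in CD8 T cells (193 to 221), 202 in gamma delta T cells (165 to 243), 166 in dendritic cells (154 to 178), 54.0 in macrophages (52.4 to 55.6) and 36.8 in CD4 T cells (31.5 to 42.8). CD8 and gamma delta T cells did not differ beyond counting error. The adaptors, named for this pairing, divided the classes. Hcst stood at 329 in NK, 345 in CD8, 284 in CD4 and 329 in gamma delta cells, against 32.9 in dendritic cells and 44.1 in macrophages. Tyrobp stood at 1680 in NK cells, 1044 in dendritic cells and 2018 in macrophages, against 118 to 243 in the T cell classes. Ligand genes of NKG2D were scarce: Raet1d reached at most 5.34 (NK), Ulbp1 at most 9.01 (CD8), and H60c had no UMI in any of the 6 classes.

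The NKR-P1 genes differed in how far they reached beyond NK cells. Klrb1c, whose protein is the NK1.1 antigen of some mouse strains, reached 267 CPM in NK cells (217 to 325) and 42.9 in gamma delta T cells (27.2 to 64.4), against 3.89 in CD8 T cells, 2.60 in CD4 T cells, 1.46 in macrophages and none in dendritic cells. Klrb1f, an activating member, was at 74.8 in NK cells (49.7 to 108) and at 1.95 or less in every other class. It overlaps 2 genes on the other strand, and whether counting used strand is not given in the sources used here. Klrb1b encodes the inhibitory receptor for the lectin Clr-b (Clec2d). Its level was 243 in NK cells (196 to 298), 126 in dendritic cells (116 to 137), 90.9 in macrophages (88.9 to 93.0), 76.5 in gamma delta T cells (54.9 to 104), 30.8 in CD4 T cells (25.9 to 36.3) and 7.06 in CD8 T cells (4.73 to 10.1). Clec2d itself ranged over the 6 classes only from 53.1 (CD8) to 88.1 (NK). Of the 3′ windows, 14.0% of Klrb1b also occur in a readthrough gene of the same locus, which held no UMI in any of the 6 classes. For Klrb1c, 11.4% also occur in that gene or in Klrb1a.

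**Figure D2:**
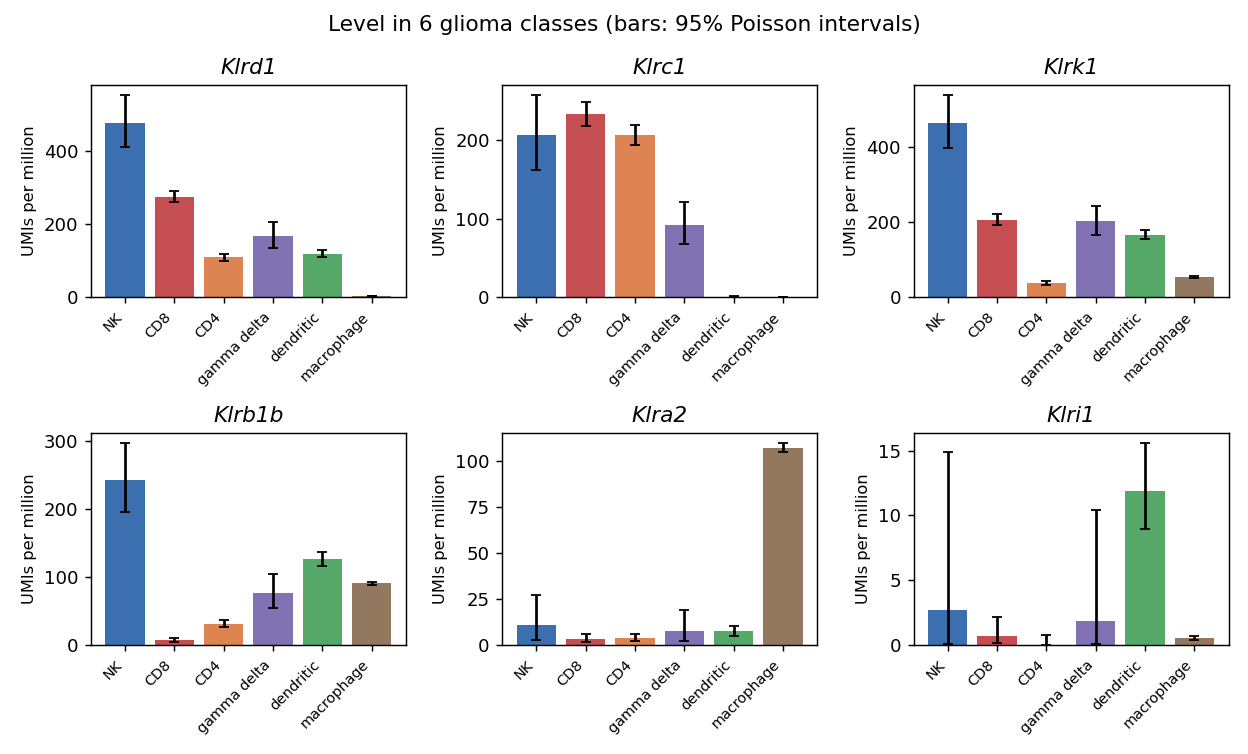
CPM of 6 members in 6 glioma cell classes (bars, with exact 95% Poisson intervals and a separate linear axis per gene). Klrc1 is at 206 to 233 in NK, CD8 and CD4 cells and near 0 in dendritic cells and macrophages, while Klra2 reaches 107 in macrophages and at most 10.7 elsewhere.

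Among the 6 classes, Klra1, Klra3, Klra4, Klra7, Klra8 and Klra9 were highest in NK cells, while Klra6, Klra2 and Klra17 were not. Klra4 and Klra8 encode the activating receptors Ly49D and Ly49H, and Ly49H is known for recognising a cytomegalovirus protein. Klra4 was at 286 CPM in NK cells (234 to 345), against 0.487 in CD8 T cells (2 UMIs) and 14.9 in gamma delta T cells, where all 8 UMIs came from 1 cell. Klra8 was at 112 in NK cells (80.9 to 152) and at 0 of 4108631 UMIs in CD8 T cells. Among the inhibitory members, Klra7 (Ly49G) was at 118 in NK cells (85.4 to 158), 63.5 in gamma delta T cells (44.0 to 88.7) and 38.9 in CD8 T cells (33.1 to 45.5), and Klra9 (Ly49I) at 96.2, 5.60 and 1.70 in the same classes. Klra3 (Ly49C) was at 53.4 in NK cells (32.6 to 82.5) and 5.60 in CD8 T cells. Klra1 (Ly49A) did not separate NK from gamma delta cells, at 45.4 (26.5 to 72.7) and 42.9 (27.2 to 64.4). Klra6 (Ly49F) was at 28.0 in gamma delta T cells (15.7 to 46.2), 16.3 in CD8 T cells (12.6 to 20.7) and 16.0 in NK cells (5.88 to 34.9), and these overlap. Klra9, Klra7 and Klra3 share 12.4%, 6.57% and 5.15% of their 3′ windows with relatives or pseudogenes, so part of their counts could belong to those.

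Klra2 encodes Ly49B, a Ly49 receptor known from myeloid cells, and Klra17 encodes Ly49Q, known from plasmacytoid dendritic cells and other myeloid cells. Klra2 was at 107 CPM in macrophages (105 to 110; 9121 UMIs in 4007 of 5856 cells), against 10.7 in NK cells (4 UMIs), 7.44 in dendritic cells and 3.41 to 7.47 in the T cell classes. Klra17 was at 3.60 in macrophages (3.21 to 4.03) and at 0.451 in dendritic cells (2 UMIs). Its locus overlaps genes on the other strand. Klrg2 was at 1.76 in macrophages (1.49 to 2.07) and 1.13 in dendritic cells, which did not differ beyond counting error. Barcodes of 10 to 100 UMIs, which hold free RNA, had 78.2 CPM of Klra2, 60.4 of Klrb1b, 49.9 of Klrk1, 29.1 of Klrd1 and 14.9 of Klrc1. The CD4 levels of Klrk1 and Klrb1b, the CD8 level of Klrb1b and the Klra2 levels of all lymphocyte classes and dendritic cells were below those of the free RNA. The macrophage level of Klrk1, 54.0, lay close to its free RNA level, and the part of free RNA in it was not tested.

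The comparison of NK with CD8 T cells asked which receptors separate the 2 cytotoxic lymphocytes of the tumour. A gene entered when its UMIs in the 2 classes reached 20 together, and it was called at a ratio of at least 2-fold. Of all 8734 genes counted, 9.37% were at least 2-fold higher and 9.30% at least 2-fold lower in NK cells. Of 19 members counted, 15 were higher and none was lower, and the median log2 ratio was 3.03, against 0.03 over all genes. Some passed the minimum through their NK UMIs, among them Klra8 (42 UMIs against 0 in CD8 T cells), Klra4 (107 against 2), Klra9 (36 against 7) and Klrb1f (28 against 8). Such members could enter only by being high in NK cells. Without the deepest 10% of cells, 12 members were higher and 0 lower. Klra4 stood at a log2 ratio of 8.88 (7.31 to 12.26), Klrb1c at 6.06 (5.33 to 6.96), Klrb1b at 5.09 (4.49 to 5.76) and Klri2 at 4.21 (3.31 to 5.18). Klra8, with no UMI in CD8 T cells, was at least 154-fold higher, taking 3 UMIs of the CD8 sum as the floor. Klrk1 (1.17, 0.93 to 1.41) and Klre1 (1.66, 1.36 to 1.94) differed less. Klrd1 (0.80, 0.56 to 1.02), Klrc2 (0.83, 0.20 to 1.39), Klra6 (0.08, -1.52 to 1.17) and Klrc1 (-0.17, -0.53 to 0.16) stayed within 2-fold. Klra7 (1.61, 1.08 to 2.08) was called higher in NK cells, although CD8 T cells held 160 UMIs of it. For Klrg1 (1.23, -0.05 to 2.22) the interval includes no difference, and without the deepest 10% of cells its ratio was -0.84. The ratio of Klra1 was then 0.04, against 1.82 with all cells.

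**Figure D3:**
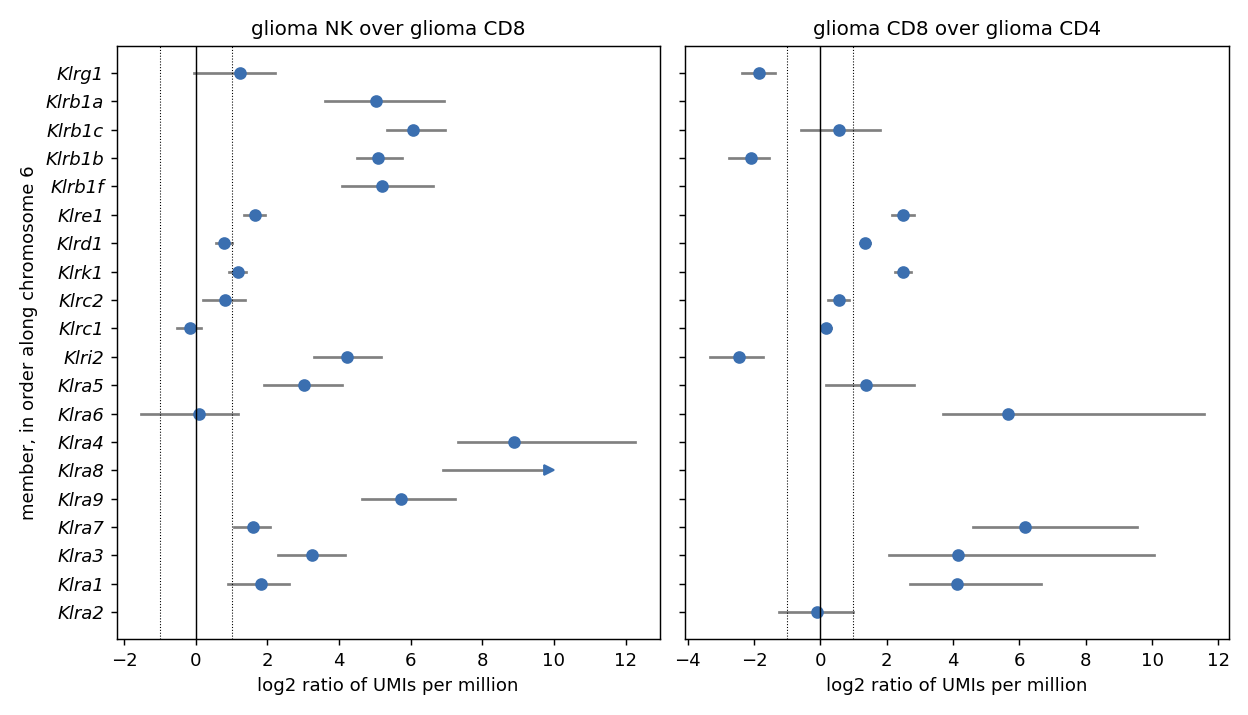
Log2 ratio of CPM for each member counted, NK over CD8 (left) and CD8 over CD4 (right), with exact 95% intervals for counting error as lines and 2-fold marked by dotted lines; the triangle is a gene with no UMI in the class compared against. Klrc1 lies near 0 on both sides, while Klrb1b and Klri2 lie to the right on the left side and to the left on the right side.

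The same ratio was read for gene lists that surround the receptors. Among 15 signalling genes counted, 5 were higher and 2 lower in NK cells: Tyrobp (3.83, 1680 against 118 CPM) and Fcer1g (3.33, 1458 against 145), adaptors of activating receptors, led the first, and the T cell receptor signalling genes Plcg1 (none against 39.7, at least 4.95-fold lower) and Lat (-3.39, 13.4 against 154) the second. Among 12 cytotoxic effectors 6 were higher and 1 lower, with Gzmc at 3.19, Gzma at 2.73 and Ifng at 1.88, and Gzmk at -3.42. Of 13 other NK receptors 5 were higher and 3 lower: Ncr1, which set the gate, and Pilra (2.20) against Slamf6 (-2.43) and Crtam (-1.90). Among 9 regulators counted, 2 were higher and 1 lower, with Eomes at 1.68, Nfil3 at 1.02, Runx3 at 0.99 and Ikzf2 at -1.16. Of 7 ligand genes none was higher and 1, Ulbp1, was called lower, at no UMI in NK cells against 9.01 (at least 1.12-fold), while Clec2d (0.75), Clec2i (0.30) and Cdh1 (-0.29) stayed within 2-fold.

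CD8 and CD4 T cells carried different members. In all, 4.25% of 9915 genes were at least 2-fold higher and 7.81% at least 2-fold lower in CD8 T cells. Of 15 members counted 8 were higher and 3 lower, with a median log2 ratio of 1.34 against -0.04 over all genes. Klrk1 (2.48, 2.25 to 2.73), Klre1 (2.49, 2.17 to 2.84) and Klrd1 (1.34, 1.19 to 1.50) were higher in CD8 T cells. So were 5 Klra genes: Klra7 (160 UMIs in CD8 against 2 in CD4 T cells), Klra6 (67 against 1), Klra1 (54 against 3), Klra3 (23 against 1) and Klra5 (19 against 8). Klri2 (-2.45, -3.32 to -1.74), Klrb1b (-2.10, -2.75 to -1.54) and Klrg1 (-1.84, -2.37 to -1.37) were lower. Klrc1 (0.18, 0.05 to 0.31), Klrc2 (0.55, 0.22 to 0.88), Klrb1c (0.57, -0.59 to 1.79) and Klra2 (-0.10, 14 against 17 UMIs) stayed within 2-fold. With a minimum of 100 UMIs in place of 20, 4 members were higher.

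Within these lists, 1 of 15 signalling genes was higher in CD8 T cells (Plcg2, 1.14) and 1 lower (Cd247, -1.64), while Ptpn11 (-0.88) and Zap70 (-0.83) stayed within 2-fold. Of 12 cytotoxic effectors 5 were higher, among them Xcl1 (5.95), Gzma (4.93) and Gzmk (4.33), and 1, Ifng, was lower (-4.23; 28.5 against 536 CPM). Among 12 other NK receptors 4 were higher, including Cd160 (3.85), Cd244 (2.79) and Crtam (2.72), and 2 lower, including the inhibitory receptor Lag3 (-2.03). Of 10 regulators 2 were higher, Eomes (3.09) and Tcf7 (1.27), and 3 lower, including Foxp3 (-5.50) and Tox (-1.76). Among 7 ligand genes 2 were higher, Cdh1 (2.33) and Clec2i (1.49), and none lower, with Ulbp1 at 0.78 and Clec2d at -0.66.

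Splitting CD8 T cells by Gzmb, the gene of a cytotoxic granule protease, showed a division among the members. In 265 cells with a Gzmb UMI, Klrc1 was at 272 CPM (255 to 291), against 90.7 (72.0 to 113) in 96 cells without. Klrk1 was at 224 against 143 and Klre1 at 120 against 68.3. The Klra genes went the other way: Klra7 was at 30.8 with Gzmb (25.0 to 37.5) against 68.3 without (52.2 to 87.7), Klra1 at 6.84 against 35.8 and Klra6 at 11.2 against 34.7. All 44 Klrg1 UMIs lay in the cells with Gzmb. Cells with a Gzmb UMI were also deeper, with medians of 9246 and 7825 UMIs, whose part in these differences was not tested. The split by Eomes in NK cells left 22 cells with and 21 without. Klra4 was at 414 with Eomes (331 to 512) against 130 without (81.6 to 197), Klra8 at 166 against 47.3 and Klra9 at 136 against 47.3. Of all 43 NK cells, 22 held no UMI of Klra4 or Klra8, so the levels of these genes rest on few cells. The intervals do not cover differences between cells. Klrc2 was at 34.1 (13.7 to 70.2) against 130 and Klrb1b at 156 (107 to 220) against 349 (266 to 450), so these 2 members had the opposite order.

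Klrg1, an inhibitory receptor for cadherins and a known marker of effector regulatory T cells, was divided within CD4 T cells by Foxp3, the regulatory T cell transcription factor. In 96 CD4 cells with a Foxp3 UMI, Klrg1 was at 127 CPM (149 UMIs), against 8.71 (30 UMIs) in 375 CD4 cells without. Its log2 ratio was 3.85 (3.30 to 4.49). This made Klrg1 the 1 member of 8 counted that was higher in regulatory cells, where 7.22% of 8807 genes were at least 2-fold higher and 4.84% at least 2-fold lower. In the other direction 6 members were lower. Klrd1 was at 18.8 with Foxp3 against 139 without (-2.86, -3.58 to -2.27) and Klrc1 at 51.2 against 258 (-2.32, -2.73 to -1.95). The remaining 4 were Klre1 (-2.13), Klri2 (-1.82), Klrb1b (-1.71) and Klrc2 (-1.56), while Klrk1 (-0.53) stayed within 2-fold. With lymphocyte gates allowing 2 UMIs of Csf1r and Adgre1 together, Klrb1b was at -0.87. Its levels with and without Foxp3, 11.1 and 37.4 CPM, were below the 60.4 of the glioma free RNA. Those of Klrk1, 27.3 and 40.1, were below its free RNA level of 49.9. In the cells with Foxp3, Klrd1 (18.8) and Klre1 (5.12) were also below their free RNA levels of 29.1 and 5.96. The part of free RNA in these ratios was not tested. The median over members was -1.76, against 0.12 over all genes, and with TMM scaling -1.92 against -0.04. Of the 949 Klrc1 UMIs of the CD4 class, 889 came from cells without Foxp3.

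**Figure D4:**
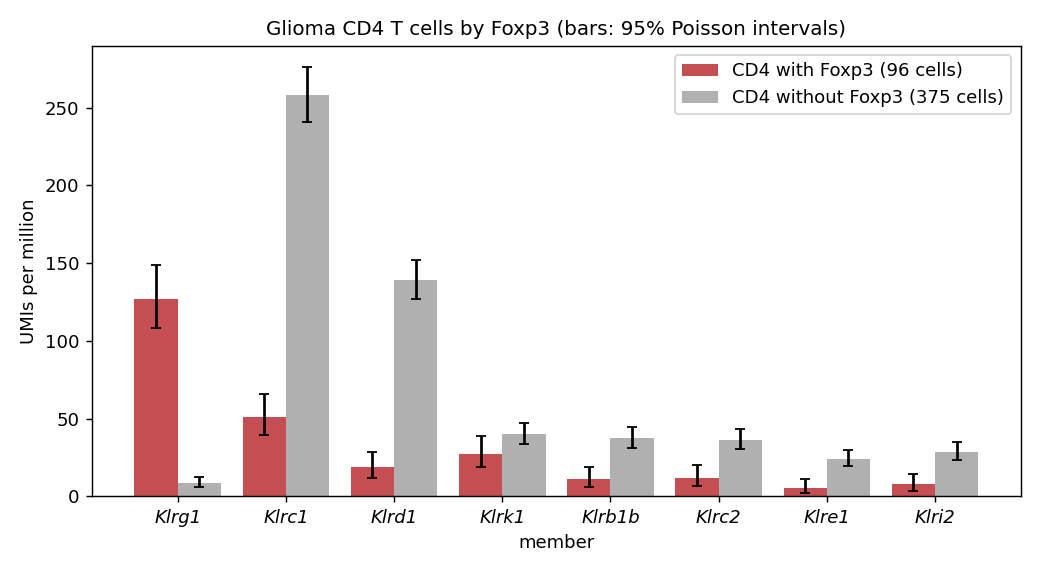
CPM of 8 members in glioma CD4 T cells with at least 1 Foxp3 UMI (left bar of each pair) and without (right bar), with exact 95% Poisson intervals. Klrg1 stands at 127 against 8.71, and the other 7 members have the lower bar in the cells with Foxp3.

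Among 10 cytotoxic effectors, 1 was higher in the cells with Foxp3, Gzmb (2.46; 1259 against 229 CPM), and 4 were lower, including Gzmc (-6.43), Ifng (-4.43) and Fasl (-2.74). Of 10 regulators 2 were higher, Ikzf2 (2.47) and Foxp3 itself, which set the split, and 2 lower, Tcf7 (-3.13) and Id2 (-1.13). Among 10 other NK receptors none was higher and 3 were lower: Cd226 (-2.84), Cd96 (-2.56) and Cd160, which had no UMI against 5.81. Lag3 (-0.82) stayed within 2-fold. Of 14 signalling genes 1 was higher, Tyrobp (1.06), and 1 lower, Cd247 (-1.14), with Sh2d1a at -0.91 and Ptpn11 at -0.87. None of 6 ligand genes was called, with Clec2d at 0.77, Ulbp1 at 0.60, Clec2i at -0.47 and H2-D1 at 0.11.

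Gamma delta T cells, which carry another kind of T cell receptor, were set against CD4 T cells. Here 8.53% of 9046 genes were at least 2-fold higher and 12% at least 2-fold lower. Of 12 members counted 7 were higher and 3 lower, with a median log2 ratio of 1.24 against -0.02 over all genes. Klra7 (34 UMIs in gamma delta against 2 in CD4 T cells), Klra1 (23 against 3), Klrb1c (4.02, 2.98 to 5.19), Klrk1 (2.46, 2.09 to 2.81), Klre1 (1.77, 1.15 to 2.34), Klrb1b (1.33, 0.78 to 1.83) and Klra2 (1.15, -1.01 to 2.64) were higher. Klrg1 had no UMI in gamma delta cells and was at least 6.92-fold lower, and Klrc1 (-1.15, -1.61 to -0.75) and Klri2 (-1.47, -3.54 to -0.24) were also lower. Klrd1 (0.64) and Klrc2 (0.82) stayed within 2-fold. Without the deepest 10% of cells, 3 members were higher: Klra7, Klrb1c at 3.53 and Klrk1 at 2.42, while Klre1 was at 0.63 and Klrb1b at 0.11. Klrd1 was then at -0.06 and Klrc1 at -1.81. As a mean over cells, Klra2 was at -0.74.

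In the lists, of 11 cytotoxic effectors 3 were higher, including Xcl1 (3.92) and Gzma (2.28), and 5 lower, including Ifng (-4.92) and Tnfsf10 (-2.38). Of 10 other NK receptors 1 was higher, Cd160 (2.27), and 4 lower, including Lag3 (-5.82), Slamf6 (-2.60) and Tigit, which had no UMI against 11.5 CPM. Among 14 signalling genes 2 were higher, Fcer1g (1.13) and Inpp5d (1.10), and none lower, with Zap70 at -0.73 and Ptpn11 at -0.72. Of 10 regulators 2 were higher, Eomes (2.61) and Tcf7 (1.62), and 2 lower, Tbx21 (-1.50) and Foxp3, at no UMI against 60.4. Of 6 ligand genes 1 was higher, Clec2i (1.40), and none lower, with H2-T23 and Clec2d at -0.47 and Ulbp1 at -0.19.

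Dendritic cells and macrophages shared Klrb1b and parted over Klrd1 and Klra2. Over 12531 genes, 10.2% were at least 2-fold higher and 17.3% at least 2-fold lower in dendritic cells. Of 15 members counted 7 were higher and 4 lower, with a median log2 ratio of 0.47 (0.56 with genes at 0 UMIs set to 3) against -0.16 over all genes. Klrd1 was at 119 CPM in dendritic cells against 3.35 in macrophages (5.14, 4.93 to 5.36), Klri1 at 11.9 against 0.541 (4.46, 3.87 to 5.07), Klre1 at 10.1 against 0.624 (4.03, 3.42 to 4.62), Klri2 at 14.0 against 1.01 (3.79, 3.29 to 4.28) and Klrk1 at 166 against 54.0 (1.62, 1.50 to 1.73). Klrc2 (5 UMIs) and Klra4 (4 UMIs) made up the rest. Of the 8 NK markers, 6 had UMIs in the dendritic sum, Eomes and Xcl1 were at 0, and the list summed to 9.02 CPM in dendritic cells and 9.68 in macrophages. Klra2 was lower, at 7.44 against 107 (-3.83, -4.39 to -3.36), as was Klra17 at 0.451 against 3.60 (-2.68, -6.05 to -1.13). Klrb1c had no UMI in dendritic cells and was at least 2.16-fold lower. Klra7 was called lower too, but at 0 UMIs against 0.459 CPM the floor allows no fold. Klrb1b (0.47), Klrc1 (0.17), Klrg2 (-0.51) and Klra3 (-0.74) stayed within 2-fold.

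Among dendritic cells, the 92 with Xcr1 or Clec9a, markers of cross-presenting cells, had the least Klrd1, at 38.8 CPM (30.4 to 48.7), against 146 (119 to 177) in 52 cells with Ccr7 or Fscn1 and 189 (170 to 210) in the other 126. Klri2 followed the same order at 4.25, 17.0 and 22.7. Klrk1 was alike at 150, 179 and 177, and Klrb1b stood at 89.7, 113 and 168. Among macrophages, 1338 cells with Ly6c2, a monocyte gene, had Klra2 at 133 (127 to 138), against 90.7 (87.7 to 93.9) in 1994 cells with Mrc1 and 113 (109 to 117) in the other 2524. Klrb1b was lowest in the cells with Ly6c2, at 65.7, against 89.0 with Mrc1 and 107 in the other cells. Klra17 was at 2.45, 4.35 and 3.34. Klrk1 was lowest in the cells with Mrc1, at 39.1 (37.1 to 41.2), and its interval was 56.3 to 63.8 with Ly6c2 and 65.3 to 71.1 in the other cells. Its level with Mrc1 was below the 49.9 of the glioma free RNA. Median depths in the same orders were 21075, 13443 and 13760.5 UMIs in the dendritic groups and 10021, 17645 and 10969.5 UMIs in the macrophage groups, and their part in these differences was not tested.

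In the lists, Serpinb9 (3.62), an inhibitor of granzyme B, was the 1 of 10 cytotoxic effectors higher in dendritic cells, and 4 were lower, including Gzma (-2.55), Tnfsf10 and Xcl1, the last 2 at no UMI. Of 15 signalling genes 2 were higher, including Plcg1 (1.87), and 5 lower, including Fcer1g (-2.37; 467 against 2413 CPM) and Lat and Zap70, both at no UMI against less than 1 CPM. Of 8 other NK receptors 1 was higher, Slamf7 (1.60), and 4 lower, including Fcgr3 (-3.02), Slamf6 (-2.53) and Pilra (-2.49). Among 10 ligand genes 2 were higher, Clec2i (3.26), the gene of the ligand of NKR-P1F, and Cdh1 (2.99), the gene of the KLRG1 ligand E-cadherin. Raet1d and Clec2g, at no UMI in dendritic cells, were lower. Of 7 regulators 4 were higher, among them Tcf7 (4.54), Tbx21 (3.99), Ikzf2 (2.17) and Id2 (1.06), and 1 lower.

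Glioma and control macrophages were compared although each came from 1 pooled library, so group and library cannot be told apart. Of 12541 genes, 12% were at least 2-fold higher and 20.9% at least 2-fold lower in glioma macrophages. Of 14 members counted 5 were higher and 1 lower. Klrb1b was at 90.9 CPM in glioma macrophages (7727 UMIs) against 1.57 in control macrophages (2 UMIs), a log2 ratio of 5.53 (4.0 to 8.90). Klrk1 was at 54.0 against 9.43 (2.46, 1.71 to 3.47) and Klra2 at 107 against 40.9 (1.38, 1.0 to 1.81). Klri2 and Klra3 were called higher, but both were at 0 UMIs in the control sum, where the floor allows no fold. The member called lower, Klra4, had 37 UMIs against 1, and with at most 5% mitochondrial UMIs its log2 ratio was 0.12, against -1.42. Of the 14, 6 were at 0 in the control sum and were counted by their glioma UMIs alone. The median log2 ratio was 0.63, or -0.65 with those set to 3 UMIs, against -0.08 over all genes (0.12 with TMM scaling). Neutrophil markers summed to 500 CPM in glioma macrophages and 16551 in control macrophages, and microglia markers to 122 and 1459. Glioma and control free RNA held Klrb1b at 60.4 and 0 CPM, Klrk1 at 49.9 and 2.80, and Klra2 at 78.2 and 2.80. The control values of Klrk1 and Klra2 came from 1 UMI each. The part of these markers and of free RNA in these ratios was not tested.

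**Figure D5:**
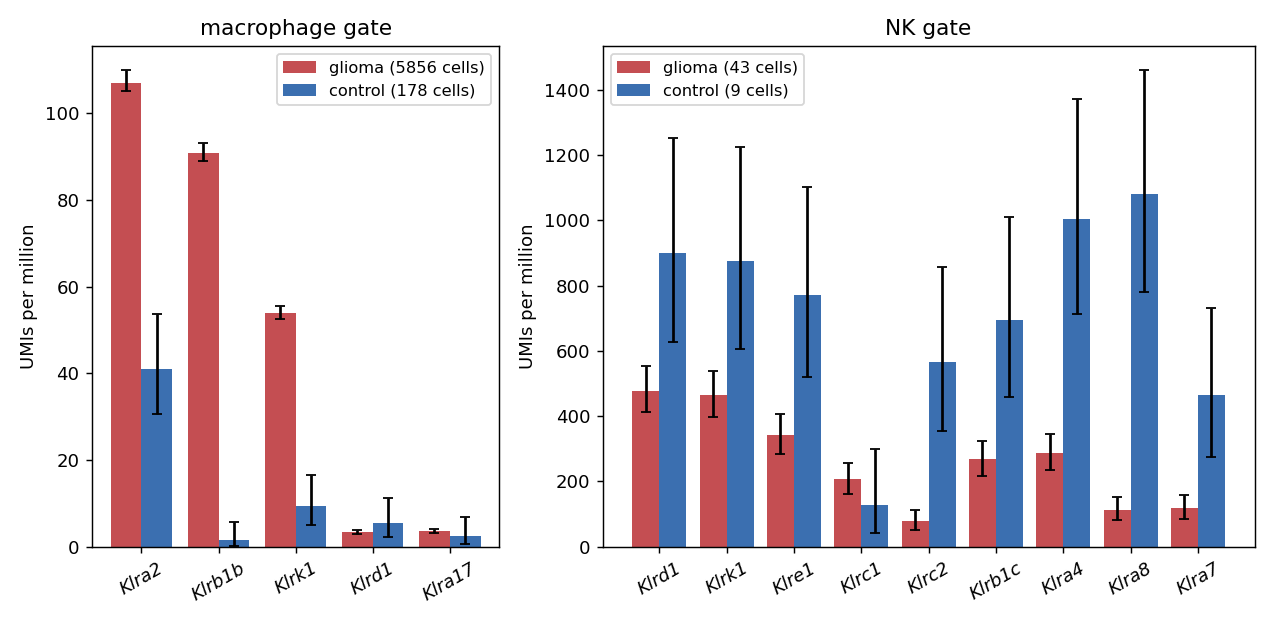
CPM of members in macrophages (left) and NK cells (right) of the glioma library (left bar of each pair) and the control library (right bar), with exact 95% Poisson intervals. Klra2, Klrb1b and Klrk1 are higher in glioma macrophages, and in the NK gate the 9 control cells have wide intervals.

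Of the lists in macrophages, 5 of 10 cytotoxic effectors were called higher and none lower, but 6 of the 10 were at 0 in the control sum, Gzmb, Nkg7 and Gzmc among them. Serpinb9 was at 2.68. Among 8 other NK receptors 3 were higher, Pilra (2.56), Pilrb1 (1.91) and Slamf6 (1.28), and 1, Lag3, was lower (-3.82). Of 10 ligand genes 4 were called higher, including Cdh1, Raet1d and Raet1e, each at 0 in the control sum, and 1, Clec2i, was lower (-2.81). Of 15 signalling genes 1 was higher, Sh2d1b1 (2.81), and 2 lower, Zap70 (-3.98) and Plcg1 (-1.15), with Lat2 at 0.98. Runx3 (1.99) was the 1 of 5 regulators higher, and 3 were lower, Gata3 (-3.45), Ikzf2 (-1.33) and Id2 (-1.29).

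NK cells of both groups are given side by side, since the 9 control cells were too few for a comparison. The members summed to 3080 CPM in glioma NK cells and 7825 in control NK cells. NK markers summed to 9739 and 21801 CPM, and neutrophil markers to 761 and 51.5 CPM, in the same order, and their part in the differences below was not tested. Klrd1 was at 478 in glioma (411 to 554) against 901 in control (627 to 1253), Klrk1 at 465 against 875 (606 to 1223) and Klrc2 at 77.5 against 566 (355 to 857). Klra4 was at 286 against 1004 (714 to 1372) and Klra8 at 112 against 1081 (779 to 1461). Klrc1 was at 206 in glioma (162 to 257) against 129 in control (41.8 to 300), which overlap. Klrb1b was at 243 in glioma (196 to 298) against 77.2 in control (15.9 to 226; 3 UMIs), and Klra1 at 45.4 in glioma against no UMI in control. A wider lymphocyte gate, allowing 2 UMIs of Csf1r and Adgre1 together, gave 44 glioma and 15 control NK cells. With it Klra8 was at 114 against 660, Klra4 at 286 against 954, Klrc2 at 76.7 against 528 and Klrc1 at 204 against 161. No label ties these cells to mice or gives their strain, although the Klra genes are known to vary between strains, and none of these differences was tested.

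Shares of cells with at least 1 UMI were taken after thinning each cell to 2000 UMIs, since depth differs between classes, which left out 43 of 177 neutrophils, 51 macrophages and at most 5 cells of each other class of the glioma library. In the control library it left out 1 NK cell, 17 macrophages and 913 microglia. Klrk1 was seen in 67.4% of 43 glioma NK cells, 32.9% of CD8, 27.2% of gamma delta, 25.2% of dendritic and 9.18% of macrophage cells, against 0.746% of 134 glioma neutrophils, where it should be absent. Klrd1 was seen in 46.5% of NK, 38.2% of CD8, 18.5% of gamma delta and 16.1% of CD4 cells and in 54 of 270 dendritic cells, against 0.551% of macrophages. Klrc1 was seen in 35.1% of CD8, 27.9% of CD4 and 25.6% of NK cells, against 0.241% of macrophages. Klra2 was seen in 20.3% of macrophages and 15.7% of 230 cells of the microglia gate, against 10.4% of neutrophils and 0.557% of CD8 T cells. Without thinning, Klrd1 was seen in 83.7% of NK cells and Klra2 in 68.4% of macrophages. Median depths before thinning were 6481 UMIs in NK cells, 8771 in CD8 T cells, 13196 in macrophages and 2455 in neutrophils.

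Chains that pair on the cell surface were looked for in the same thinned cells. In CD8 T cells 56 of 359 held UMIs of both Klrd1 and Klrc1, 81 held Klrd1 alone and 70 Klrc1 alone, so 40.9% of cells with Klrd1 also had Klrc1. This share rests on depth, at 58.5% with 5000 UMIs per cell and 70.6% without thinning, where 192 of 361 CD8 T cells held both. In CD4 T cells the numbers were 38, 37 and 92 of 466. Klrd1 and Klrc2 were seen together in 1 of 43 glioma NK cells, against 6 of 8 control NK cells, and without thinning in 14 of 43 against 7 of 9. Klrc1 and Klrk1, an inhibitory and an activating receptor, were seen together in 55 of 359 CD8 T cells and in 8 of 43 NK cells. In CD4 T cells 122 of 466 held Klrc1 without Klrk1 and 8 held both. Klra2 and Klrb1b were seen together in 157 of 5805 macrophages, with 1022 cells holding Klra2 alone and 602 Klrb1b alone. Without thinning, 1937 of 5856 macrophages held both.

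Ly49 genes were seen in some NK cells and not in others. Of 43 glioma NK cells thinned to 2000 UMIs, 20 held no Klra UMI, 10 held 1 Klra gene, 8 held 2 and 5 held 3 or more. Without thinning these numbers were 14, 7, 8 and 14. Of 8 control NK cells thinned alike, 1 held none, 1 held 2 and 6 held 3 or more. Klra4 was seen in 12 glioma NK cells and Klra8 in 9, with 5 cells holding both. Klra1 was seen in 1 glioma NK cell and Klra7 in 6 others at this depth, too few to read their overlap, and without thinning 1 of 43 cells held both. In CD8 T cells 329 of 359 held no Klra UMI, and in CD4 T cells 461 of 466. Glioma NK cells held a median of 5 members each and at most 8, and none was without any. Macrophages held a median of 0, although 1212 of 5805 held 1 Klra gene and 17 held 2.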

How the data were processed

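CD45+ cells of 4 glioma and 4 control samples, as the labels list them, were profiled with a droplet kit that reads transcript 3′ ends (version 2 or 3, per the labels' protocols). Cell Ranger (version 3.0.2), STAR and Seurat (version 3) appear in the submitters' processing notes, with mm10 and GRCh38 as builds. The authors deposited raw counts: 1 matrix per group of UMI counts per gene and barcode, with all 6794880 barcodes and no filter for cells. How counting used strand is not given in the sources used here.

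Barcodes with at least 1000 UMIs and at most 10% mitochondrial UMIs were kept and placed in 6 classes by raw UMIs of marker genes. NK cells had Ncr1 and no CD3 gene. CD8, CD4 and gamma delta T cells had 2 CD3 UMIs with Cd8a or Cd8b1, Cd4, or Trdc. Dendritic cells had Flt3 or Zbtb46 with Cd74, and macrophages Csf1r with Lyz2, Ms4a7, Mrc1 or Ccr2. Lymphocyte gates allowed no Csf1r, Adgre1 or Cd79a. Of the glioma cells 3237 met no gate, of the control cells 1886. No doublet caller was run. Instead the deepest 10% of each class were left out as an alternative.

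UMIs were summed over a class and scaled to 1000000 (CPM). Ratios are log2 with 0.5 UMIs added to each sum, and the floor for a gene at 0 is 3 UMIs of its sum. Intervals are exact (Poisson, Clopper-Pearson, conditional binomial) and cover counting error only. On simulated sums of the NK and CD8 comparison (8578 genes) 96.9% of intervals held the true ratio. Being made on sums, this check cannot show how the intervals hold where UMIs cluster in few cells. No test was run, since there is 1 library per group. Free RNA profiles came from barcodes of 10 to 100 UMIs with fewer than 300 UMIs in the other library. There were 15 other settings tried, and 2 more were chosen after seeing the data, as was the comparison of glioma with control macrophages. Loci and transcripts come from GENCODE M21, promoters from RefSeq. TMM factors are from edgeR 4.0.16. The members, lists and alternatives were chosen with earlier results of these data known. Every measured member is named, and of the other lists the 4 genes with the largest log2 ratio in a comparison. Partner adaptors and ligands are also named for their known pairing.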

Additional observations from a re-analysis of the deposited data

Results flagged for a closer look

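In 3 cell groups outside the 6 classes, Klrd1 stood above its level in the free RNA of the glioma library, which was 29.1 CPM, and above control microglia, at 7.25. In 28 glioma cells gated as plasmacytoid dendritic cells Klrd1 was at 251 CPM (200 to 312), with a UMI in 25 cells. In 8 glioma cells with both CD3 and Ncr1 UMIs it was at 320 (250 to 404), and 43 of its 71 UMIs came from 1 cell. In 251 glioma T cells without Cd4, Cd8a, Cd8b1, Trdc and Ncr1 UMIs it was at 205 (183 to 229), with a UMI in 112 cells. None of these differences was tested.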

How the results depend on the processing

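No paired analysis was possible because each group is 1 pooled library. Of 252 alternative counts and shares, 228 kept within 1.5 times or 1 interval of the reported value and 24 moved. Of 1188 alternative log2 ratios, 1145 kept their direction and stayed within their interval, 40 moved and 3 reversed. With a minimum of 100 UMIs, the members at least 2-fold higher numbered 6 (NK over CD8), 4 (CD8 over CD4), 3 (gamma delta over CD4) and 3 (dendritic over macrophage), and 0 were lower in glioma than in control macrophages. With a minimum of 5 UMIs, 12 were higher in gamma delta than CD4 cells, 3 higher in regulatory CD4 cells, 5 lower in CD8 than CD4 cells and 7 lower in glioma macrophages. These minimums change how many genes are counted. Without the deepest 10% of cells, 3 members were higher in gamma delta cells and 3 were measured there, against 9, and Klrg1 reversed to -0.84 for NK over CD8. With 2 UMIs of the defining marker, 7 members were measured in NK cells, against 14. Klra2 reversed to -0.74 for gamma delta over CD4 as a mean over cells, and Klra4 to 0.12 for glioma over control macrophages at 5% mitochondrial UMIs. The cause of these changes was not tested. Shares depended on depth: with 5000 UMIs per cell and without thinning they were 74.2% and 83.7% for Klrd1 in NK cells, 54.3% and 64.3% for Klrc1 in CD8, 49.5% and 49.5% for Klrc1 in CD4 cells, 41.4% and 68.4% for Klra2 and 26.2% and 43.8% for Klrb1b in macrophages, and 47.9% and 75.2% for Klrk1 in dendritic cells. Subtracting free RNA at 10% moved 7 ratios, among them Klrb1b for NK over CD8 (7.70, against 5.09). 1 UMI equals 2.67 CPM in the glioma NK sum, which limits the rarer Klra genes there.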

Other observations

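Glioma T cells in which none of Cd4, Cd8a, Cd8b1, Trdc and Ncr1 was seen held the Ly49 genes of the CD8 class at higher levels. In these 251 cells Klra1 was at 128 CPM (111 to 147, with a UMI in 58 cells), Klra7 at 121 (105 to 140, in 56 cells), Klra6 at 49.4 (39.0 to 61.7) and Klra9 at 28.9 (21.1 to 38.6). The CD8 class had 13.1, 38.9, 16.3 and 1.70 of the same genes, and gamma delta T cells had 42.9, 63.5, 28.0 and 5.60. Klra4 and Klra8, the activating Ly49 genes of NK cells, had 1 and 2 UMIs there. The median depth of these cells was 5242 UMIs, against 8771 in the CD8 class.

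Klra17, the gene of Ly49Q, was at 42.9 CPM (23.5 to 72.0) in 28 glioma cells gated as plasmacytoid dendritic cells, against 3.60 in macrophages. Its 14 UMIs lay in 9 cells. These cells had no Klrc1 UMI beside their 82 Klrd1 UMIs, a chain of the CD94 receptor without its NKG2A partner, as in the dendritic class.

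In 230 glioma cells gated as microglia by P2ry12, Tmem119 or Sall1 UMIs, microglia markers summed to 679 CPM, against 15027 CPM in control microglia, and macrophage markers to 31808 CPM, against 15605 CPM in glioma macrophages. The gate's name therefore goes against its markers in the glioma library. These cells held Klra2 at 86.1 CPM (77.6 to 95.2) and Klrb1b at 48.9 (42.5 to 55.9), against 1.46 and 0.692 in 11569 control microglia. The Klrb1b level was below the 60.4 CPM of the glioma free RNA, and the interval of Klra2 held its free RNA level of 78.2. In the control free RNA Klra2 was at 2.80 CPM, from 1 UMI, and Klrb1b had no UMI. The part of free RNA in these differences was not tested. Control microglia held 597 Klrd1 UMIs in 538 cells, at 7.25 CPM, which is below the 11.2 of the control free RNA, itself read from 4 UMIs.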
